A study of Mus musculus with 9 samples.

Results

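Gas6 and the TAM receptor genes are a ligand and receptor set of 5 named genes: the ligands Gas6 and Pros1, and the receptor tyrosine kinases Axl, Tyro3 and Mertk. The members were taken by gene symbol, and 3 of the 5 (Gas6, Axl and Tyro3) had a row among the 15446 uniquely named genes. Pros1 and Mertk had no row and are unmeasured here, which says nothing of whether they were expressed. Gas6 was the reason for the choice, because its values in the knockouts lay far below the control. Its levels against the control are therefore described without a test.

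Poly(A) RNA from ROC6, a murine oral squamous cell cancer line, was sequenced in 9 libraries: 3 of a CSMD3 knockout made with guide 1, 3 of a CSMD3 knockout made with guide 2, and 3 labelled WT Control. All groups share the ROC6 background and the same medium with serum. The series describes each knockout as a clone, so a difference of a knockout from the control, or between knockouts, cannot be told apart from a difference between clones. The labels do not say whether the 3 replicates are separate cultures, so the p-values rest on a spread that may be technical. Csmd3 itself was not analysed here.

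TAM receptors take their name from Tyro3, Axl and Mertk, and are activated by GAS6 or protein S bound to phosphatidylserine, a lipid that dying cells expose on their surface. Both ligands need a vitamin K-dependent carboxylation to bind that lipid. GAS6 binds all the TAM receptors and has its strongest affinity for AXL, whereas protein S acts on TYRO3 and MERTK. In carcinoma cells AXL is known for roles in invasion, survival and drug resistance, and MERTK is best known from macrophages that engulf dead cells.

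The upstream windows of the 3 measured genes are shown because transcript levels from these genes are what was compared. The 250 bases before the RefSeq start site lie at chr8:13494536-13494785 on the minus strand for Gas6, at chr7:25788734-25788983 on the minus strand for Axl, and at chr2:119799264-119799513 on the plus strand for Tyro3, all in GRCm38.p6. Each is written 5′ to 3′ on the gene's strand, and capitals mark matches to the motifs searched.
Gas6: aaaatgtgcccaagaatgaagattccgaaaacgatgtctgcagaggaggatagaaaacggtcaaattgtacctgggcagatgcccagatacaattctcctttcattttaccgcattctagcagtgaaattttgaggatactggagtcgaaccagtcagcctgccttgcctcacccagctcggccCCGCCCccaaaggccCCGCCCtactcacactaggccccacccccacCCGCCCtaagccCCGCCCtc
Axl: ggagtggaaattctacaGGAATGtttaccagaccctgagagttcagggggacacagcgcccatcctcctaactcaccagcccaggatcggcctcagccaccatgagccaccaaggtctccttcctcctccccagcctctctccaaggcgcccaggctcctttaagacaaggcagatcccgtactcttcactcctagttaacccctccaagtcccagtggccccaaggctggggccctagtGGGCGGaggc
Tyro3: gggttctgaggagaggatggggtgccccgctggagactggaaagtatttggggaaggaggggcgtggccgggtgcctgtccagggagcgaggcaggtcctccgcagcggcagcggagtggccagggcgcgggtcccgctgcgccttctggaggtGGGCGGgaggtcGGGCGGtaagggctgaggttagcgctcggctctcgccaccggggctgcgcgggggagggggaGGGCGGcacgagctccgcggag
The motifs were the GC box (GGGCGG), the TEAD motif (GGAATG) and the AP-1 motif (TGANTCA), searched on both strands, and no matches overlapped. Gas6 held 4 GC boxes, the nearest starting 8 bases before the start site, Tyro3 held 3, and Axl held 1. Axl also held 1 TEAD motif, starting 233 bases before the start site. The AP-1 motif was not found in these windows. Over all 32851 upstream windows of the same length, 32.7% held a GC box, 12.6% the TEAD motif and 6.75% the AP-1 motif. GC content was 54.8% for Gas6, 60.0% for Axl and 73.2% for Tyro3, against a median of 52.4% over all windows. A match describes the letters of a window and is not evidence of binding.

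Expression was given as FPKM, fragments scaled to transcript length and to the mapped total, so levels of different genes can be set side by side per length. Library sums over these genes were 162625 to 168620 FPKM. Read depth is unknown. In 15441 of the 15446 rows the means of guide 1 and guide 2 were both above or both below that of the control, so a shared direction in the knockouts is a property of the rows and not a result about a gene. The rows may thus be a selection of genes, and each rank and each share of tested genes given here is over these rows alone. Both comparisons with the control also use the same 3 control libraries. Of 17 squamous and basal epithelial markers 8 had a row and 3 reached a mean of 1 FPKM, namely Perp, Itga6 and Sfn. The list summed to between 112 and 121 FPKM in guide 1 libraries, between 85.9 and 91.4 in guide 2 libraries and between 79.0 and 87.1 in control libraries. Perp made up most of each sum, with means of 105 FPKM for guide 1, 83.4 for guide 2 and 79.1 for the control. Itgb4 went the other way, at means of 0.309, 0.612 and 0.843 FPKM, as did Krt17, at 0.0666, 0.00921 and 0.125 FPKM. The keratins Krt13 and Krt15 were listed at 0 in all 3 controls. Macrophage and other leukocyte markers had 2 of 11 with a row, and summed to between 1.20 and 1.54 FPKM with guide 1, 1.81 and 2.67 with guide 2, and 0.473 and 0.875 in controls, with Lyz2 at 0 in all 3 controls. The 2 of 9 fibroblast markers with a row summed to between 1.44 and 1.82 FPKM with guide 1, 7.89 and 9.08 with guide 2, and 0.840 and 1.60 in controls. Endothelial markers had 2 of 6 with a row and a sum of at most 0.714 FPKM, in guide 1 libraries, with Vwf at 0 in all 3 controls. The part of these markers in the results below was not tested.

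Gas6, the measured ligand, was the member with the widest range. It stood at 12.1, 12.9 and 12.1 FPKM in the guide 1 libraries, at 57.6, 60.4 and 56.9 FPKM in the guide 2 libraries, and at 252, 250 and 197 FPKM in the control libraries. The groups did not overlap, as in 71.9% of tested genes for guide 1 against control and 68.6% for guide 2 against control, and control replicate 3 was the lowest of its group. The mean with guide 1, 12.4 ± 0.461 FPKM (SD, n = 3), was 5.30% of the control mean of 233 ± 31.0 FPKM (SD, n = 3). With guide 2 the mean was 58.3 ± 1.85 FPKM (SD, n = 3), or 25.0% of the control mean. In bulk RNA, fewer cells with the transcript and less transcript per cell cannot be told apart. By its group mean Gas6 was the 2644th highest of the 15446 genes with guide 1, the 495th with guide 2 and the 89th in the control. On the log2(FPKM + 1) scale, on which all fold changes are given and which understates changes of low genes, it differed from the control by -4.12 with guide 1 and -1.97 with guide 2. Of the 6965 genes with a mean of at least 1 FPKM, 3 had a lower fold change than Gas6 with guide 1, and 67 with guide 2. These places are not independent of the choice of Gas6 and are given as a description.

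Gas6 was also compared between the knockouts, where the control cancels but the knockout values that led to its choice remain. Guide 2 libraries were higher than guide 1 libraries by 2.15 log2 units (SE 0.0843, limma adjusted p = 1.84e-08), and all 3 guide 2 libraries lay above all 3 guide 1 libraries. The mean FPKM with guide 2 was 4.72 times that with guide 1. The guides did not overlap in 61.5% of tested genes. Among the 6965 tested genes 54.5% differed between the guides at a limma adjusted p under 0.05, and 0.617% had a larger absolute difference than Gas6. Neither this share nor the p-value of Gas6 is independent of its choice, so both are given as a description. Exons of Gas6 overlap those of Tmem255b, which lies on the opposite strand in the GENCODE annotation, and whether the counting used strand is not given in the sources used here. Tmem255b, looked up for this reason, was listed at 0 in all 3 guide 1 libraries, at no more than 0.0453 FPKM in guide 2 libraries and at no more than 0.159 FPKM in control libraries.

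**Figure D1:**
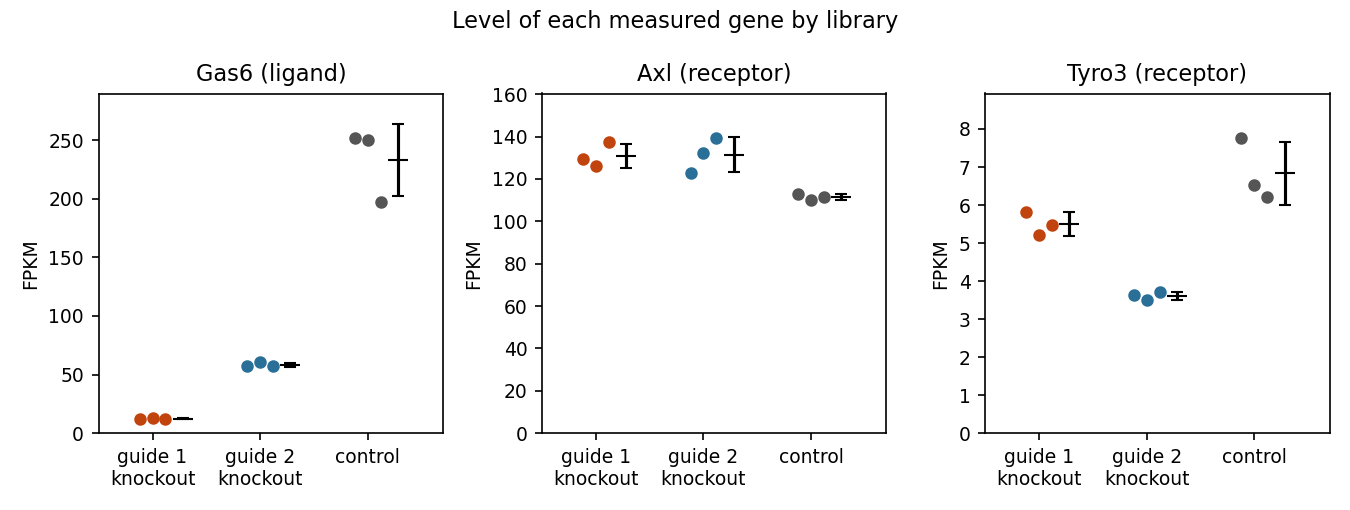
FPKM (vertical axes, each from 0) of Gas6, Axl and Tyro3 in each library of the guide 1 knockout, the guide 2 knockout and the control; points are libraries, and black bars are the mean and SD of 3. Gas6 averages 12.4 FPKM for guide 1, 58.3 for guide 2 and 233 for the control, Axl stays between 110 and 139 FPKM in all 9 libraries, and Tyro3 stays under 8 FPKM.

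Axl, the receptor with the strongest affinity for GAS6, was far more abundant than Tyro3 and was slightly higher in both knockouts. It stood at 130, 126 and 137 FPKM with guide 1, at 123, 132 and 139 FPKM with guide 2, and at 113, 110 and 111 FPKM in controls. All 6 knockout libraries lay above all 3 controls, and those of the knockouts overlapped each other. Over all tested genes, 71.9% had no overlap with the control for guide 1 and 68.6% for guide 2. Axl rose by 0.23 log2 units with guide 1 (SE 0.0524, limma adjusted p = 0.00267) and by 0.23 with guide 2 (SE 0.0524, limma adjusted p = 0.0026). The means were 131 ± 5.63 FPKM in guide 1 libraries, 131 ± 8.23 in guide 2 libraries and 111 ± 1.45 in the control (SD, n = 3 each), which is 17.6% and 18.0% above the control mean. Limma called 68.1% of the tested genes for guide 1 and 65.4% for guide 2, and 62.6% and 58.8% of them had a larger absolute fold change than Axl.

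Between the guides Axl differed by 0.0042 log2 units, with a 95% interval from -0.11 to 0.12 (limma adjusted p = 0.957). The interval holds differences in either direction about as large as the lower bound of the change with guide 1, 0.11 log2 units, so equal levels are not shown. Its rank by group mean was 187 with guide 1, 190 with guide 2 and 232 in controls.

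Tyro3, the other measured receptor, was the least abundant member and was lower in both knockouts. It stood at 5.82, 5.21 and 5.48 FPKM with guide 1, at 3.63, 3.50 and 3.71 FPKM with guide 2, and at 7.77, 6.52 and 6.21 FPKM in controls. No 2 of the 3 groups overlapped, with guide 2 lowest and the control highest, while 71.9%, 68.6% and 61.5% of tested genes had no overlap for guide 1 against control, guide 2 against control and guide 2 against guide 1. Tyro3 fell by 0.26 log2 units with guide 1 (SE 0.0759, limma adjusted p = 0.0101) and by 0.76 with guide 2 (SE 0.0759, limma adjusted p = 9.69e-06). The means of 5.50 ± 0.303 FPKM with guide 1 and 3.61 ± 0.107 with guide 2 were 80.5% and 52.9% of the control mean of 6.83 ± 0.824 (SD, n = 3 each). Guide 2 was below guide 1 by a log2 difference of -0.49 (SE 0.0759, limma adjusted p = 0.000311), in a comparison where 54.5% of tested genes were called. For Tyro3, 57.7% of tested genes had a larger absolute fold change with guide 1, 13.8% with guide 2 and 20.0% between guides.

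The order of the groups thus differed by gene. Gas6 was lowest with guide 1 and intermediate with guide 2, Tyro3 was lowest with guide 2 and intermediate with guide 1, and Axl was lowest in the control with no difference between the guides beyond their spread.

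**Figure D2:**
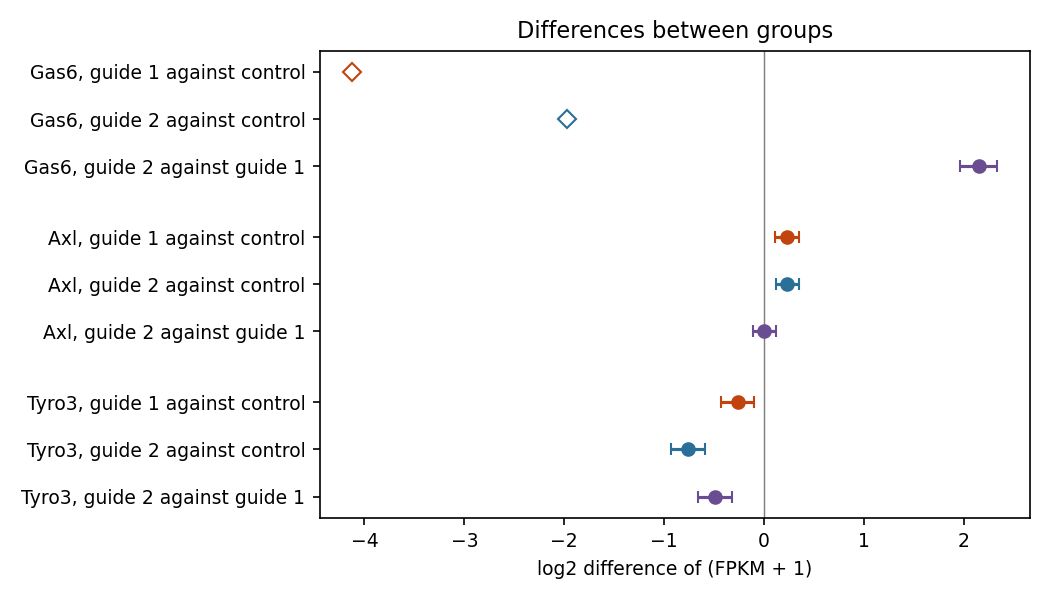
Differences of log2(FPKM + 1) (horizontal axis) for each measured gene in the 3 comparisons; filled points carry the limma 95% interval, and open diamonds are the Gas6 differences from the control, given without an interval because they led to its choice. The 2 differences of Axl from the control are both 0.23, and the difference of Gas6 between guides is 2.15.

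Because FPKM is scaled to length, ligand and receptor transcripts can be set against each other within a library. The Gas6 to Axl ratio was 0.0930, 0.102 and 0.0885 with guide 1, 0.469, 0.458 and 0.408 with guide 2, and 2.23, 2.27 and 1.77 in controls. Gas6 was thus the more abundant transcript in every control library, and Axl in every knockout library. The mean ratio was 0.0946 ± 0.00696 with guide 1, 0.445 ± 0.0322 with guide 2 and 2.09 ± 0.277 in controls (SD, n = 3 each). These ratios carry the Gas6 difference on which the choice rests, and an exact two-sided permutation test of 3 against 3 libraries cannot go below p = 0.1, so none was run.

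Axl made up nearly all of the measured receptor transcript in each group. Its share of the Axl and Tyro3 sum was between 95.7% and 96.2% with guide 1, between 97.1% and 97.4% with guide 2, and between 93.6% and 94.7% in controls, with Mertk unmeasured. The Axl to Tyro3 ratio was 22.3, 24.2 and 25.1 with guide 1, 33.9, 37.8 and 37.6 with guide 2, and 14.5, 16.9 and 17.9 in controls. Both knockouts lay above the control in this ratio, and guide 2 lay above guide 1. The sum of both receptors was 136 ± 5.71 FPKM for guide 1, 135 ± 8.27 for guide 2 and 118 ± 2.17 in controls (SD, n = 3 each).

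**Figure D3:**
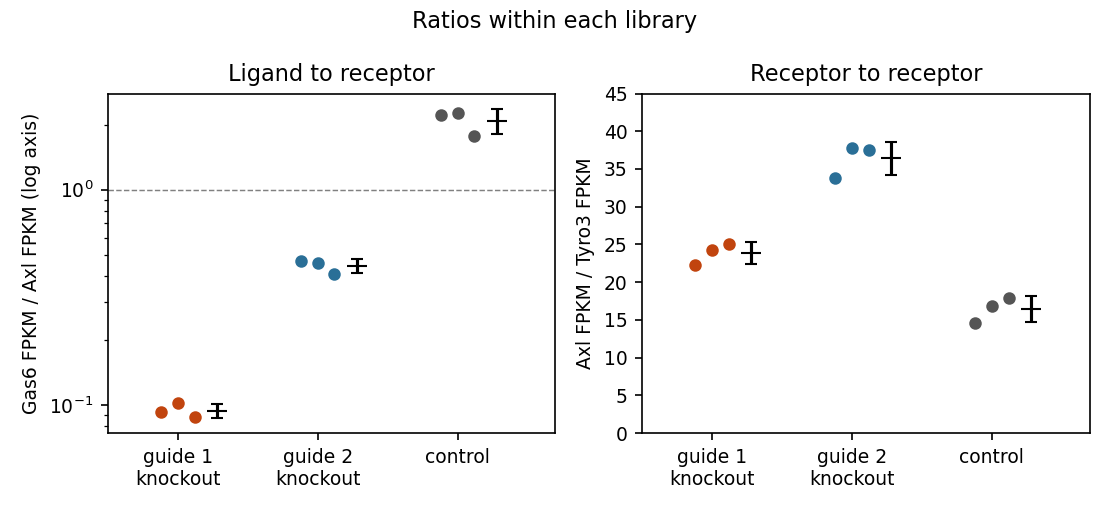
Ratio of Gas6 to Axl FPKM (left, log axis, dashed line at 1) and of Axl to Tyro3 FPKM (right) in each library of the guide 1 knockout, the guide 2 knockout and the control; points are libraries, and black bars are the mean and SD of 3. Control libraries lie above 1 on the left, at 1.77 to 2.27, and all 6 knockout libraries lie below it.

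Genes around the TAM receptors were taken from 9 lists with 97 genes, of which 58 had a row and 48 were tested. With guide 1, 16 of the 48 rose and 18 fell, or 33.3% and 37.5%, against 30.2% and 37.9% of all tested genes. With guide 2, 20 rose and 14 fell, or 41.7% and 29.2%, against 31.9% and 33.5% of all tested genes. Between the guides, 22 were higher with guide 2 and 10 lower, or 45.8% and 20.8%, against 31.2% and 23.3%. The median log2 fold change of the 48 was 0.02 with guide 1, 0.025 with guide 2 and 0.16 between guides, beside -0.039, -0.027 and 0.036 over all tested genes. Shares against the control were thus near the background for guide 1. No test of the lists was made. These shares of all tested genes are also the background for the counts of each list below, most of which hold few genes. These totals include Vav3, Itgb3 and Prrg1, each under 1 FPKM in at least 1 group, which passed the filter through other groups.

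The vitamin K cycle supplies the carboxylation that GAS6 and protein S need. Of 8 listed genes 5 were tested, and 1 rose and 3 fell with guide 1, 2 rose and 1 fell with guide 2, and 4 were higher and 0 lower in guide 2 than in guide 1 (median log2 fold changes -0.53, -0.12 and 0.26). Vkorc1l1, a vitamin K epoxide reductase, fell to 10.9 ± 0.702 FPKM with guide 1 and 12.8 ± 0.605 with guide 2, against 22.7 ± 1.06 in the control (SD, n = 3 each; limma adjusted p = 1.65e-07 and 1.34e-06). Aifm2, which reduces vitamin K and coenzyme Q, rose by 0.35 log2 units with guide 1 and 0.47 with guide 2. Calu encodes an inhibitor of the carboxylase in the endoplasmic reticulum. It averaged 203 ± 4.32 FPKM in guide 2 libraries, 132 ± 5.23 in guide 1 libraries and 220 ± 9.83 in controls (SD, n = 3 each). The log2 difference of guide 2 from guide 1 was 0.61 (limma adjusted p = 2.4e-06). Against the control, Calu fell by 0.73 log2 units with guide 1 and was not called with guide 2.

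Other proteins with the carboxylated Gla domain had 3 of 12 listed genes tested. Of the 2 besides Prrg1, 0 rose and 1 fell with guide 1, 1 rose and 1 fell with guide 2, and 2 were higher and 0 lower with guide 2 than with guide 1. Mgp, an inhibitor of calcification, stood at 24.3, 26.5 and 25.9 FPKM with guide 1, at 78.3, 70.8 and 64.1 with guide 2, and at 113, 112 and 83.5 in controls. Its groups did not overlap. Over all tested genes, 71.9% had no overlap for guide 1 against control, 68.6% for guide 2 against control and 61.5% between the guides. The order of the Mgp groups was that of Gas6. With both knockouts on one side of the control in nearly all rows, few orders were possible, so this is a description. Mgp fell by 1.96 log2 units with guide 1 and by 0.52 with guide 2 (SE 0.113 each, limma adjusted p = 1.22e-07 and 0.00214), and the log2 difference between guides was 1.44 (limma adjusted p = 2.69e-06). Prrg2, a transmembrane Gla protein, rose by 0.45 log2 units with guide 2.

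Of 3 genes listed as further TAM ligands, Lgals3 was tested. Lgals3 encodes galectin-3, a lectin that has been described as a ligand of MERTK. It stood at 167, 174 and 168 FPKM with guide 1, at 139, 135 and 132 with guide 2, and at 28.9, 30.2 and 22.9 in controls. Both knockouts lay far above the control, and guide 2 lay below guide 1. Lgals3 rose by 2.60 log2 units with guide 1 and 2.28 with guide 2 (SE 0.0849 each, limma adjusted p = 1.92e-09 and 7.45e-09), and differed by -0.32 between guides (limma adjusted p = 0.0086). It was more abundant than Gas6 in every knockout library and less abundant in every control library. That comparison carries the Gas6 difference on which the choice rests, so it is a description.

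The list of membrane proteases had 2 of 5 genes tested. Both fell with guide 1, and 1 of them with guide 2. Adam10, which cleaves the extracellular part of AXL, fell to 24.3 ± 1.34 FPKM with guide 1 and 26.2 ± 0.855 with guide 2, against 38.8 ± 2.24 in the control (SD, n = 3 each; limma adjusted p = 2.85e-06 and 1.36e-05). Bace1, an aspartyl protease, was higher with guide 2 than with guide 1 by 0.37 log2 units.

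Adaptors and effectors of TAM signalling went both ways. Of 24 listed genes 16 were tested. Without Vav3, 4 were higher and 5 lower with guide 1, and 6 higher and 3 lower with guide 2. In guide 2 against guide 1, 8 were higher and 1 lower. The median log2 fold changes were -0.013, -0.011 and 0.28 in that order. Of all tested genes, 30.2% were higher and 37.9% lower with guide 1, 31.9% and 33.5% with guide 2, and 31.2% and 23.3% between guides. Socs3, a suppressor of cytokine signalling, averaged 9.56 ± 0.741 FPKM in guide 1 libraries, 17.7 ± 0.675 in guide 2 libraries and 31.8 ± 1.79 in controls (SD, n = 3 each). It fell by 1.64 log2 units with guide 1 and by 0.81 with guide 2 (limma adjusted p = 7.14e-09 and 1.59e-06).

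Among the genes of this list that rose, Tns2 encodes a tensin that has been found bound to AXL. It averaged 7.69 ± 1.11 FPKM in guide 1 libraries, 9.50 ± 0.976 in guide 2 libraries and 2.77 ± 0.322 in controls (SD, n = 3 each), with log2 fold changes of 1.20 for guide 1 and 1.48 for guide 2 (limma adjusted p = 7.19e-07 for guide 2). Vav3, a guanine nucleotide exchange factor, averaged 2.02 ± 0.223 FPKM in guide 1 libraries, 2.39 ± 0.151 in guide 2 libraries and 0.284 ± 0.115 in controls (SD, n = 3 each). Vav3 reached the filter of 1 FPKM through the knockout libraries, so it had to differ and no p is given. Nck2 is an adaptor of receptor tyrosine kinases. It averaged 18.0 ± 1.74 FPKM in guide 1 libraries, 9.78 ± 0.382 in guide 2 libraries and 9.65 ± 0.458 in controls (SD, n = 3 each). Guide 2 was lower than guide 1 by a log2 difference of -0.82 (limma adjusted p = 4.96e-06). Against the control, Nck2 rose by 0.83 log2 units with guide 1 and was not called with guide 2. The subunit gene Pik3ca and the receptor gene Ifnar1 were not called in any of the 3 comparisons, with log2 fold changes between -0.09 and -0.01.

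Engulfment genes, which act downstream of MERTK in phagocytes, had 7 of 10 tested, with 1 higher and 3 lower with guide 1, 2 higher and 3 lower with guide 2, and 2 higher and 2 lower between guides. Bcar1, a scaffold of focal adhesions, rose to 85.6 ± 4.41 FPKM with guide 1 and 40.7 ± 1.33 with guide 2, against 30.3 ± 1.37 in the control (SD, n = 3 each; limma adjusted p = 3.72e-09 and 5.15e-05). It was lower with guide 2 than with guide 1 by a log2 difference of -1.05. Gulp1, an engulfment adaptor, was called lower with both guides, at log2 fold changes of -0.71 with guide 1 and -0.35 with guide 2. Its level was higher with guide 2 than with guide 1 by 0.36 log2 units. Elmo2, which activates Rac together with DOCK proteins, was also called lower with both, at -0.14 with guide 1 and -0.40 with guide 2.

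Genes that move phosphatidylserine between membrane leaflets had 6 of 8 tested, with 3 higher and 2 lower with guide 1, 2 higher and 2 lower with guide 2, and 3 higher and 1 lower between guides. The scramblase gene Ano6 averaged 11.6 ± 1.13 FPKM in guide 2 libraries and 19.2 ± 1.21 in guide 1 libraries, against 10.1 ± 0.604 in the control (SD, n = 3 each). It rose by 0.87 log2 units with guide 1 (limma adjusted p = 2.61e-06), and the difference between guides was -0.68 (limma adjusted p = 2.78e-05). Atp11a, a flippase that keeps phosphatidylserine inside, was called lower with both guides, at log2 fold changes of -0.76 with guide 1 and -0.25 with guide 2. Plscr3, of the phospholipid scramblase family, rose by 0.19 log2 units with guide 1 and by 0.90 with guide 2, and was called with both. The difference between guides was 0.71. Xkr8, the scramblase that caspases activate, fell by 0.25 log2 units with guide 2 (limma adjusted p = 0.0334).

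Other proteins that bridge or bind phosphatidylserine had 5 of 15 listed genes tested. Of the 4 besides Itgb3, 3 rose and 1 fell with each guide (median log2 fold changes 0.73 with guide 1 and 0.52 with guide 2). Itgb3, an integrin subunit that binds the bridging protein MFGE8, stood at 3.67, 4.41 and 3.83 FPKM with guide 1, at 0.938, 0.860 and 0.752 with guide 2, and at 0.110, 0.136 and 0.0475 in controls. It reached the filter through the guide 1 libraries, so it had to differ, and its log2 fold changes were 2.18 with guide 1, 0.75 with guide 2 and -1.42 between guides. Itgb5 and Mfge8 itself rose by 1.38 and 1.07 log2 units with guide 1 and by 0.65 and 0.46 with guide 2. Scarb1, a lipoprotein receptor that also binds phosphatidylserine, fell to 11.5 ± 0.738 FPKM with guide 1 and 16.6 ± 0.284 with guide 2, against 34.8 ± 3.50 in the control (SD, n = 3 each; limma adjusted p = 2.94e-08 and 7.08e-07). Between the guides 1 of the 4 genes besides Itgb3 was higher and 2 were lower.

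Partners of AXL and related receptor tyrosine kinases had 3 of 12 listed genes tested. With guide 1, 1 rose and 1 fell, and the same counts held with guide 2, while 1 was higher and 2 were lower in guide 2 than in guide 1. Egfr, whose product can associate with AXL, rose by 0.34 log2 units with guide 2 (limma adjusted p = 0.00281), at 5.04 ± 0.569 FPKM against 3.75 ± 0.276 in the control (SD, n = 3 each). Ptk7, a receptor without kinase activity, rose by 0.33 log2 units with guide 1. Igf1r, the receptor of insulin-like growth factors, fell by 0.33 log2 units with guide 1 and by 0.69 with guide 2. Exons of Aifm2, Ano6, Atp11a, Bace1, Calu, Plscr3 and Prrg2 overlap a gene on the opposite strand in the GENCODE annotation, so their reads could have been divided.

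**Figure D4:**
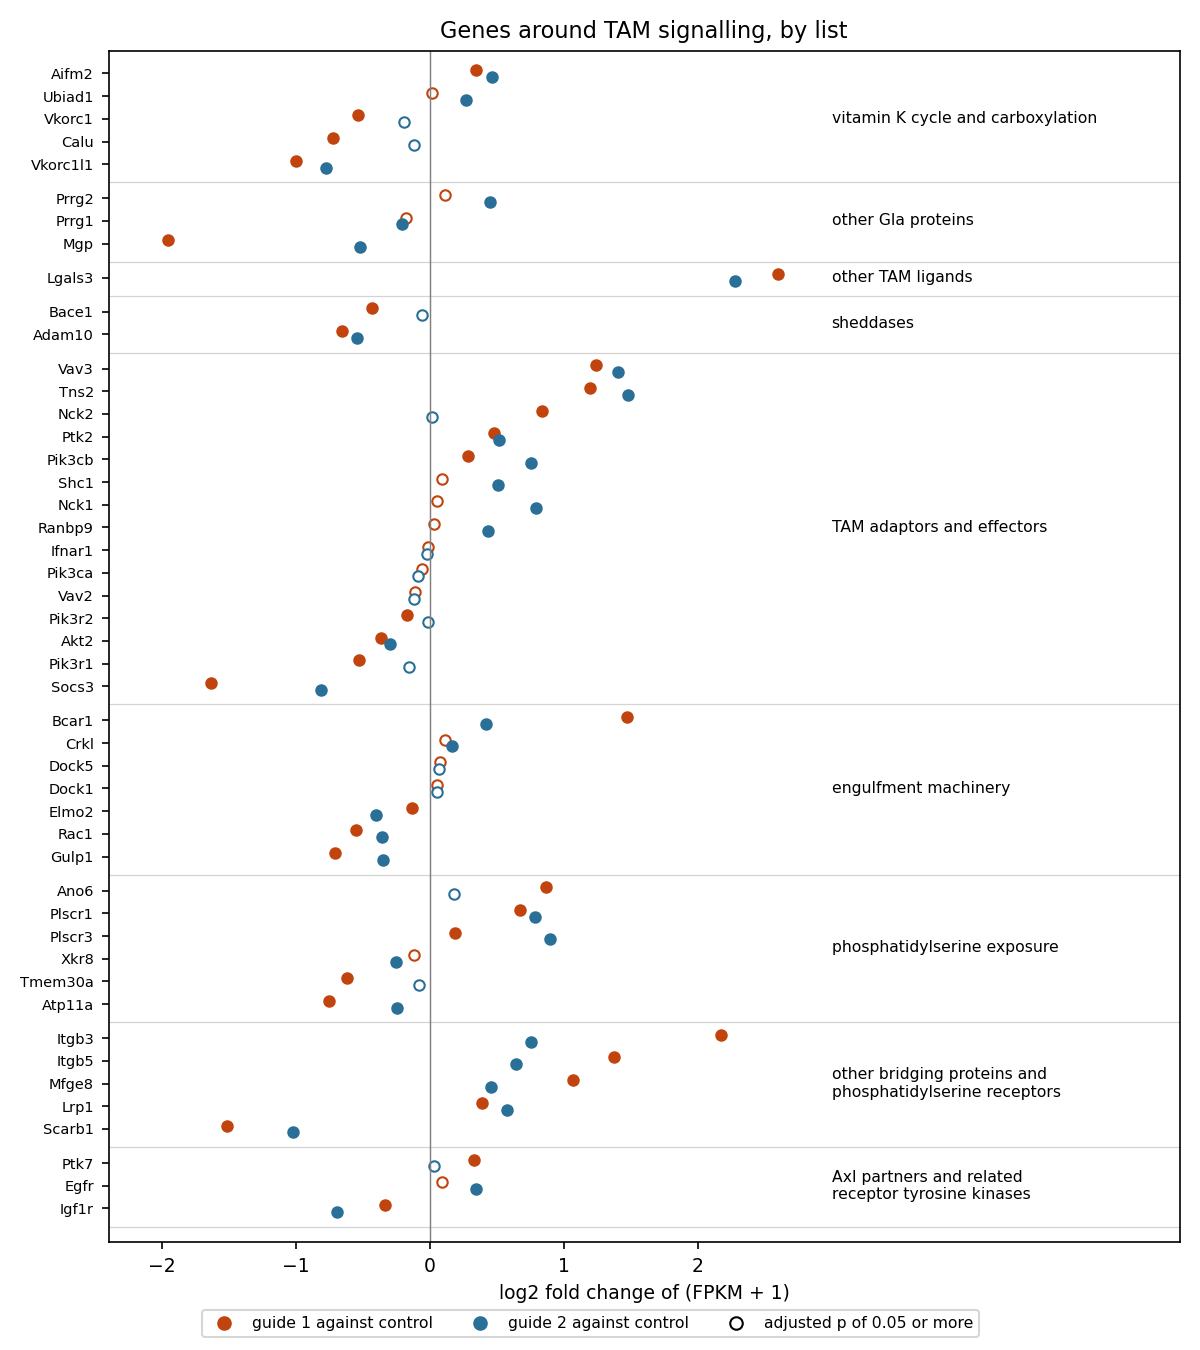
Log2 fold changes of (FPKM + 1) (horizontal axis) of 47 of the 48 tested genes around TAM signalling, grouped by list, for guide 1 against control and guide 2 against control; filled points passed a limma adjusted p under 0.05 and open points did not. Lgals3 has the points farthest to the right, at 2.60 and 2.28, and Mgp with guide 1 the point farthest to the left, at -1.96.

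The genes whose pattern was most like each member were found by Pearson's r of log2(FPKM + 1) over the 9 libraries, among 4354 other genes that averaged at least 5 FPKM. The libraries fall into 3 groups, so r mainly reflects the order and spacing of the groups, and it is given as a description. For Gas6 the 5 closest were Fgf23, Slpi, Mvk, Nek7 and Mmab, with r between 0.997 and 0.998. Fgf23, a hormone of phosphate balance, averaged 0.171 ± 0.0836 FPKM in guide 1 libraries, 5.40 ± 0.664 in guide 2 libraries and 23.4 ± 2.14 in controls (SD, n = 3 each). Fgf23 reached the mean of 5 FPKM through the control libraries, so its difference from the control was partly set by that filter. The size of the differences was smaller in Nek7, a kinase of mitosis and the inflammasome, at a mean of 14.7 ± 0.172 FPKM in guide 1 libraries, 22.0 ± 0.419 with guide 2 and 30.2 ± 1.57 in controls (SD, n = 3 each). Mmab, an enzyme of cobalamin metabolism, averaged 5.92 ± 0.262 FPKM in guide 1 libraries, 12.3 ± 0.688 in guide 2 libraries and 24.1 ± 2.58 in controls (SD, n = 3 each).

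For Axl the 5 closest were Zc3h7b, Gdnf, Dgcr8, Wiz and Zxdc, with r between 0.964 and 0.985. Gdnf, a neurotrophic factor that signals through the receptor RET, averaged 9.11 ± 0.592 FPKM in guide 1 libraries, 8.84 ± 0.921 in guide 2 libraries and 6.02 ± 0.356 in controls (SD, n = 3 each). For Tyro3 they were Tbc1d8b, Tmem64, Fuca1, Ints8 and Slc35f5, with r between 0.989 and 0.992. Fuca1, a lysosomal fucosidase, averaged 15.5 ± 0.108 FPKM in guide 1 libraries, 12.8 ± 0.229 in guide 2 libraries and 17.8 ± 1.19 in controls (SD, n = 3 each). No gene was among the closest of more than 1 member.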

How the data were processed

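RNA of 9 libraries was measured. The values that the authors deposited are FPKM, per the file headers. Cutadapt, FastQC, HISAT2 and StringTie are named in the submitters' processing notes. Tool versions, build and annotation were not given in the sources used here. The 174 rows that share 62 symbols were left out, since they cross records. Values at the bottom of the scale were not whole multiples of a read (at most 1.48% of genes under 0.5 FPKM shared the most frequent ratio between a pair of libraries), so no counts were recovered, and counting error is unknown. No pair of libraries was identical.

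The limma package (3.58.1, R 4.3.3) was used to fit log2(FPKM + 1) of all 9 libraries, over the 6965 genes that averaged at least 1 FPKM, with a mean-dependent prior variance and Benjamini-Hochberg adjustment over all of them. Genes were called at an adjusted p under 0.05. The fit was checked on simulated data with independent noise. Such a check cannot address whether the replicates are separate cultures or whether the rows are a selection. Group means are given with their SD. Besides the members, the genes named are the called gene with the largest fold change of each direction in each list and comparison, and the 5 most like each member, without predicted genes. Genes added to these were chosen after their values were seen: Mfge8, Itgb5, Pik3ca, Ifnar1 and Tmem255b. One gene that this rule names is counted in its list but not reported here. The members and lists were chosen with earlier results of these data known. Other settings tried were quantile normalization, a replicate block, a pseudocount of 0.1, a stricter filter of 5 FPKM or none, the compared libraries alone, a constant prior variance, scaling by a mean with 30% trimmed at each end, and leaving out each library. Counts of 3 lists were also taken without genes that passed the filter through some groups only, which was chosen after seeing the data. Promoter windows are from RefSeq (GRCm38.p6), matched by symbol for all 3 measured members, and exon overlaps from GENCODE M21 by symbol.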

Additional observations from a re-analysis of the deposited data

Results flagged for a closer look

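Gas6 and Tyro3 each differed in how far the knockouts lay from the control, by the test of guide 2 against guide 1. For Gas6 the log2 difference was 2.15 (limma adjusted p = 1.84e-08), with guide 2 nearer to the control. For Tyro3 the log2 difference was -0.49 (limma adjusted p = 0.000311), with guide 1 nearer to the control. Such differences were common: between the guides 54.5% of tested genes were called, and the libraries of the guides did not overlap in 61.5%. A larger absolute difference was found in 0.617% of tested genes for Gas6 and in 20.0% for Tyro3. For Gas6 neither the share nor the p-value is independent of its choice, which rested on its knockout values.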

How the results depend on the processing

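There were 204 alternative values of 12 results (the 3 counts of called genes and the 9 member differences). Of these, 199 kept the direction and side of the threshold, or stayed within 1.5 times of a count. Gas6 against the control carries no p, so it had to keep its direction and move by less than the within-group SD. The filters, the replicate block and the constant prior variance cannot move a fold change. Nor can fitting the compared libraries alone, or leaving out a library of the group not compared. All of those outcomes for Gas6 against the control were fixed in advance, and they are counted among the 199. The 5 others are the difference of Axl between guides, which did not pass in any of its 17 alternatives (limma adjusted p from 0.405 to 1) and changed sign to -0.0034 after quantile normalization and -0.025 after trimmed mean rescaling, and lay between -0.039 and 0.051 when single libraries were left out. Leaving out libraries moved Gas6 between -4.24 and -4.06 with guide 1, and Tyro3 between -0.32 and -0.18 with guide 1, where the limma adjusted p over all alternatives was at most 0.0402. Axl against the control stayed between 0.20 and 0.28 with guide 1 and between 0.19 and 0.28 with guide 2. With the replicate block 4764, 4559 and 3784 genes were called for guide 1 against control, guide 2 against control and guide 2 against guide 1, against 4745, 4557 and 3793 without it. The samples share only a number. Deviations of same-numbered libraries correlated between -0.11 and 0.24, and 2 of 9 pairs were over 0.1. Those 2 were between the guides, at 0.24 for replicate 1 and 0.21 for replicate 3. Same-numbered pairs of a knockout and the control lay between -0.11 and 0.056. Of 18 best matches 9 were to the own number, among 3 candidates each. Whether the knockouts share a batch was not tested. Precision is limited by 3 libraries per group and by unknown depth.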
